A study of Mus musculus with 53 samples.

Results

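Interferon-stimulated genes were examined as a list of 37 genes in mouse T-cell tumours that arose on 15 genetic backgrounds, measured on 53 Affymetrix arrays. Of the 37 genes, 33 had a probe set that names only that gene, among 12393 genes measured. Where a gene had several probe sets, the one of highest mean intensity was used. Isg15 and Tgtp1 lay only on probe sets that name several genes, and Ifi44 and Xaf1 were on no named probe set, so these 4 have no value here. Of the 33, 30 passed the filter for testing, which asked for a value above the array's own median on at least 3 arrays and kept 9156 genes. The 3 that did not pass were Stat2, above the median on 1 array, Ifit1, above it on 2, and Cxcl10, above it on 0.

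Interferons are secreted proteins that bind surface receptors and signal through Janus kinases to transcription factors in the nucleus. Type I interferon acts on genes mainly through the interferon-stimulated response element (ISRE), whereas interferon gamma acts mainly through the gamma-activated sequence (GAS). The induced genes block steps of viral growth, coat and destroy vacuoles that hold pathogens, and raise antigen presentation, and many are also expressed at a low level without infection.

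The mice were all of the C57BL/6 strain, the cells are labelled T-cell lymphoblasts, and no treatment was given. The knock out backgrounds were Cdkn2a knock out with retroviral insertional mutagenesis (9 arrays), E2A knock out (2), rag E2A knock out (2) and p53 knock out (3). The transgenic backgrounds were beta-catenin (3), LMO1 (3), Nup98HoxD13 (3), olig1-LMO1 double (3, called olig2 in the sample titles), Pokemon (2), Tal1 (2), Tal1-LMO2 double (3) and ThPOK (3). A line named Ikaros Plastic had 3 arrays. These 13 backgrounds, with 41 arrays, are labelled TLX1 negative. The TLX1 transgenic tumours (6) are labelled TLX1 positive, and the tumours of TLX1 transgenic mice crossed to RUNX heterozygous ones (6, here TLX1-RUNX) are labelled TLX1 negative. The promoters of the transgenes were not given in the sources used here. No source says that the tumours of a background came from separate animals, so a p-value here speaks only of the spread among these tumours.

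Values are log2 of the deposited linear intensity, and a difference of 1 on this scale is a doubling. Array medians ran from 377.2 to 589.6 in linear intensity, and the log2 medians of the TLX1-RUNX arrays were the lowest on average, at 8.61 ± 0.03 (SD, n = 6). On 27 bacterial control probe sets the arrays fell into a set of 38, a set of 8 that held the 6 TLX1 arrays and p53 replicates 1 and 2, a set of the 6 TLX1-RUNX arrays and a single array, so for TLX1-RUNX the genotype and the array set cannot be told apart. The array labelled p53 replicate 2 stood apart from the T-cell label. Its values of 5 of 7 T cell markers lay below those of all 52 other arrays (Cd3g at 7.84 against at least 11.28), and 6 of 8 stroma and endothelium markers lay above all others (Cdh5 at 12.74 against at most 10.26). Results on p53 are therefore given with and without it. On the other 52 arrays Cd3e lay between 11.22 and 13.25. Of the 6 B cell markers measured, Cd22 was above the array median on 48 of 53 arrays, Cd79a on 11, Cd79b and Blnk on 9 each, Ms4a1 on 4 and Pax5 on 0. Of the 6 NK and cytotoxic cell markers measured, Gzma was above it on 50, Nkg7 on 9, Gzmb on 2, Klrk1 on 1, and Ncr1 and Prf1 on 0.

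The promoters bear on these genes because ISRE and GAS matches are what the pathway's factors are known to bind. In the RefSeq promoter table (build GRCm38.p6, 250 bases before to 50 after each start), 31 of the 37 listed genes had an entry. An ISRE was searched as GAAANNGAAA on either strand, and a GAS as TTCNNNGAA, which reads the same on both strands. The ISRE was found in 15 of 31 members (48.4%), against 3.99% of all 27025 genes and 3.44% of all 32851 promoters of the same length. The GAS was found in 11 (35.5%), against 9.55% of all genes and 8.3% of all promoters. Either motif was present in 21 members (67.7%) against 12.9% of all genes. By role, an ISRE was held by 5 of 6 interferon-inducible GTPases, which include Tgtp1, and by 7 of 13 antiviral effectors. It was held by 1 of 4 sensors or regulators, 1 of 4 transcription factors and 1 of 4 antigen processing or chemokine genes. A match describes the letters in this window and does not show a bound site.

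Stretches of 100 bases are shown for 7 members that the results below describe: 4 that were called lower in Cdkn2a tumours (Irf1, Igtp, Irgm1, Gbp2), Oas1a and Ifit3, which were called in p53, TLX1 and TLX1-RUNX tumours, and Rsad2, which was called in p53 tumours. They are written in the direction of the gene, with the motif matches in capitals. All 7 hold a match. Called members that had no match or no entry, among them Ifi47, Parp14, Psmb9, Rtp4 and Oasl1, are not shown. Irf1 is chr11:53769914-53770013, plus strand. Igtp is chr11:58199456-58199555, plus strand. Irgm1 is chr11:48871421-48871520, minus strand. Gbp2 is chr3:142620563-142620662, plus strand. Oas1a is chr5:120907526-120907625, minus strand. These 5 end at the base before the start that the table gives, and the other two end further upstream. Ifit3 is chr19:34583337-34583436, plus strand, and Rsad2 is chr12:26456543-26456642, minus strand.
Irf1: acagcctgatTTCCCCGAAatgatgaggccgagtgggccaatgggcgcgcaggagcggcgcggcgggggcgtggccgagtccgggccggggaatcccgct
Igtp: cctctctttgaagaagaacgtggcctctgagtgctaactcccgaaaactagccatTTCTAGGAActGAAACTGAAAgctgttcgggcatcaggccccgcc
Irgm1: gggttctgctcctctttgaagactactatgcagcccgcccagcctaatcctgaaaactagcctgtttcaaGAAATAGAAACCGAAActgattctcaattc
Gbp2: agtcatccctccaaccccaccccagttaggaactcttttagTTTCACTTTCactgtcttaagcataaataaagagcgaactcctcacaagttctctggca
Oas1a: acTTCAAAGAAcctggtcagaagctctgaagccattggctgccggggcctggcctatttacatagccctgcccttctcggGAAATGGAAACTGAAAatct
Ifit3: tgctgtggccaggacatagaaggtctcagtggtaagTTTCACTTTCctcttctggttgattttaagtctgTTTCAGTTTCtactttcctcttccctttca
Rsad2: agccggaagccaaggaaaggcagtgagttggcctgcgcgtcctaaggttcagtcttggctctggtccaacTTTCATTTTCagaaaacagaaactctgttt
Irf1 shows 1 GAS and no ISRE, Igtp shows 1 of each close together, and Oas1a shows a GAS and a pair of overlapping ISRE matches. Irgm1, like Oas1a, has 2 overlapping ISRE matches, and Ifit3 has 2 that lie apart on the opposite strand. Gbp2 and Rsad2 each have 1.

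Averaged over the 33 measured members, after each was centred on its mean over the 53 arrays, the score was lowest in Cdkn2a tumours and highest in Ikaros Plastic and p53 tumours. The Cdkn2a score was -0.223 ± 0.283 (SD, n = 9), running from -0.506 over a median of -0.294 to 0.371. The Ikaros score was 0.272 ± 0.100 (SD, n = 3) and the p53 score 0.260 ± 0.202 (SD, n = 3), which was 0.145 without p53 replicate 2. The spread between arrays was wide against the steps between backgrounds. No gap between neighbours in the order of the 15 backgrounds was larger than the larger SD of the pair. Cdkn2a was the lowest under all 7 ways of making the score that were tried, whereas the highest place went to TLX1-RUNX, at 0.374, when each array was centred on its median, and at 0.261 after quantile normalization.

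**Figure D1:**
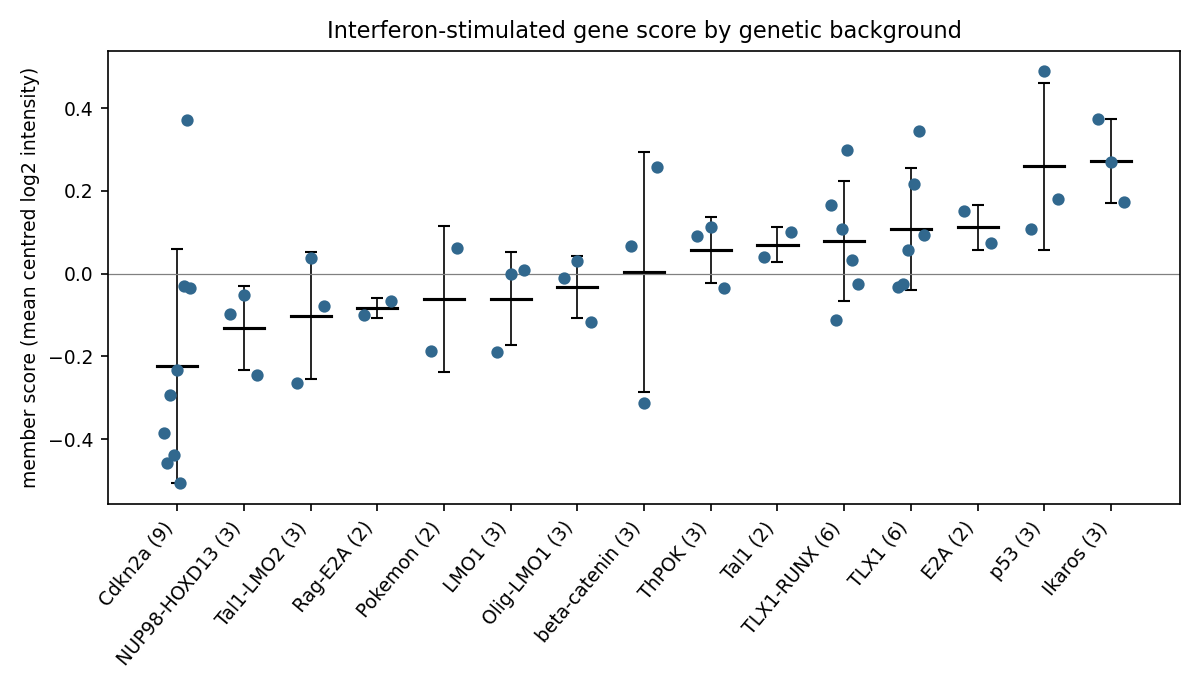
The mean of 33 centred members (log2 intensity, vertical axis) is plotted for each of 53 arrays (points), by background with the number of arrays in brackets; bars give the mean and whiskers 1 SD. The Cdkn2a mean is the lowest, its 9 arrays run from -0.506 to 0.371 and overlap those of other backgrounds, and the order of the other backgrounds is within the spread of their arrays.

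Members with different roles did not move as a block. The score over the GTPases alone was -0.702 ± 0.489 (SD, n = 9) in Cdkn2a tumours and 0.643 in Ikaros tumours. The score over sensors and regulators was highest in p53 tumours, at 0.619, and lowest in beta-catenin tumours, at -0.406. The score over antiviral effectors was lowest in LMO1 tumours, at -0.282, and the antigen processing and chemokine score was highest in TLX1-RUNX tumours, at 0.348.

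**Figure D2:**
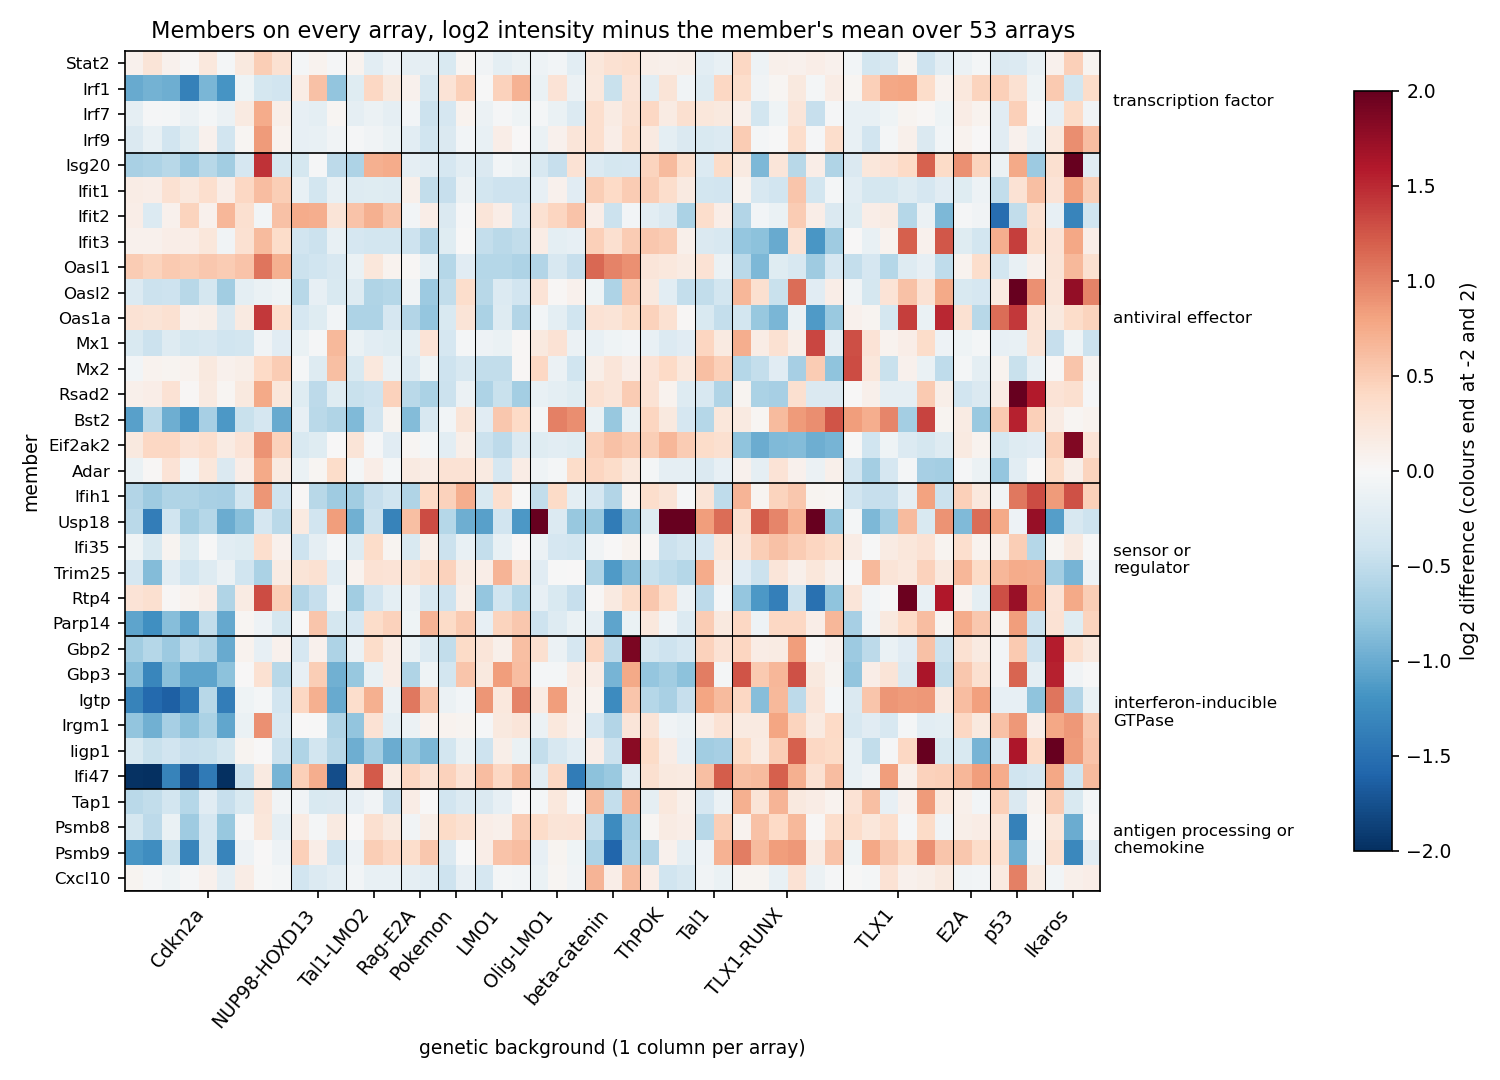
Each row is 1 of the 33 measured members, grouped by role, and each column 1 array, grouped by background in the order of the score; colour gives the log2 intensity minus the member's mean over 53 arrays. The blue block at the left is the low Irf1, Parp14 and GTPase values of most Cdkn2a arrays, and single red cells mark members that were high on 1 array of a background.

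Across the 13 backgrounds, 24 of the 30 tested members differed (limma's moderated F test, adjusted p under 0.05), or 80.0%. Of all genes tested, 78.2% differed, so that the members' share was close to that of the array as a whole. Oasl1, an oligoadenylate synthetase-like protein that in mice restrains Irf7 translation, had the largest F, 21.06 (adjusted p = 3.38e-12), with group means from 8.17 in LMO1 tumours to 9.78 in beta-catenin tumours. Among sensors and regulators the largest was Trim25, a ubiquitin ligase of the RNA-sensing pathway (F = 10.99). Among GTPases it was Ifi47, an immunity-related GTPase (F = 5.23), with means from 9.48 in Cdkn2a to 11.71 in Tal1 tumours. Among the transcription factors it was Irf1, a factor that is itself induced by interferon and then turns on further genes (F = 4.48). The 6 tested members that did not pass were Irf7, Isg20, Tap1, Mx2, Mx1 and Ifi35. Mx1 is a restriction factor whose allele in C57BL/6 mice is known to be defective.

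In the single comparisons each background was set against the mean of the other backgrounds among the 13. Over those 13 comparisons and the 3 with TLX1 and TLX1-RUNX, 79 member differences passed the threshold, in 28 members. In 4 of the 79 the arrays of the groups did not overlap, and these 4 all involve TLX1-RUNX, which has an array set of its own. The share of all genes whose arrays did not overlap is not given, so this count describes no trait of the members. Shares of all genes below belong to the fit beside which they stand. For most other settings no such share is given, and member counts there have no background.

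In Cdkn2a tumours the interferon-inducible GTPases, Irf1 and several regulators were low. Of 30 tested members 12 were lower, against 16.4% of all genes tested that were lower, and 2 were higher, against 27.4% of all genes. The median difference of the 33 measured members was -0.25 on the log2 scale, where that of all genes tested was 0.05. By role, 5 of the 6 GTPases were lower, as were 4 of 6 sensors and regulators, 1 of 3 transcription factors, 1 of 3 antigen processing genes and 1 of 12 antiviral effectors.

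Ifi47 (chr11:49076587-49096987) showed the largest difference. Its Cdkn2a values were 8.83, 8.56, 9.48, 9.03, 9.39, 8.72, 10.38, 10.99 and 9.89 for replicates 1 to 9, and the 32 arrays of the 12 other backgrounds had a lowest value of 9.03, a median of 11.18 and a highest of 12.03. Replicates 1 to 6 and 9 lay below the median of the others by more than 1, replicates 7 and 8 were nearer, and the groups overlapped. The difference was -1.57 ± 0.23 (SE), or 2.98-fold lower (adjusted p = 3.67e-07).

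Irf1 (chr11:53770014-53778374) gave 9.40 as its lowest, 9.81 as its median and 10.67 as its highest Cdkn2a value, against 9.97, 10.97 and 11.46 in the 32 other arrays. All 9 Cdkn2a arrays lay below the median of the others. The difference was -0.93 ± 0.13 (SE; adjusted p = 3.8e-07).

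Igtp (chr11:58199556-58207592), an immunity-related GTPase that acts on pathogen vacuoles, ran from 8.73 over a median of 9.03 to 10.33 in Cdkn2a tumours. The other arrays ran from 9.10 over 10.56 to 11.43, and the difference was -1.14 ± 0.21 (SE; adjusted p = 2.55e-05). The other GTPases that were lower were Gbp3 (-0.75), Irgm1 (-0.61) and Gbp2 (-0.58). Iigp1 was the GTPase that did not pass, with Cdkn2a values of 7.90 to 8.41.

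Among the regulators, Parp14, an ADP-ribosyltransferase, was lower, with a difference of -0.83 ± 0.15 (SE; adjusted p = 1.9e-05), with a Cdkn2a range of 8.11 to 9.39 against 8.30 to 10.18. Usp18, which removes Isg15 from proteins and damps the type I receptor, was lower (-0.78), and so was Ifih1, the cytosolic sensor of long double-stranded RNA (-0.51). Trim25 was lower (-0.42), a call that was lost when all its probe sets were averaged (-0.14). Its 3 probe sets disagree, since the third had a correlation of -0.007 with the one used.

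Bst2 (tetherin), which holds budding virus on the cell membrane, ran from 8.48 over 8.67 to 9.30 in Cdkn2a tumours and from 8.75 over 9.64 to 11.18 in the others. Its difference was -0.80 ± 0.17 (SE; adjusted p = 0.000225). Psmb9, an inducible subunit of the immunoproteasome, was lower too, with a difference of -0.67 ± 0.17 (SE; adjusted p = 0.00118).

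Oasl1 and Eif2ak2 were the members higher in Cdkn2a tumours. Oasl1 ran from 9.21 over 9.28 to 9.83 there and from 8.14 over 8.72 to 9.90 elsewhere, a difference of 0.60 ± 0.07 (SE; adjusted p = 5.07e-09). Eif2ak2, the kinase that stops translation on sensing double-stranded RNA, was higher by 0.27 (adjusted p = 0.0141), a call lost with quantile normalization, with centred arrays and with the mean of probe sets. Oasl1 and Eif2ak2 both followed the array median over the 41 arrays (r = 0.807 and 0.779), and the Cdkn2a arrays had a mean log2 median of 9.04 where the mean over all arrays was 8.91; the part of this in the result was not tested.

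**Figure D3:**
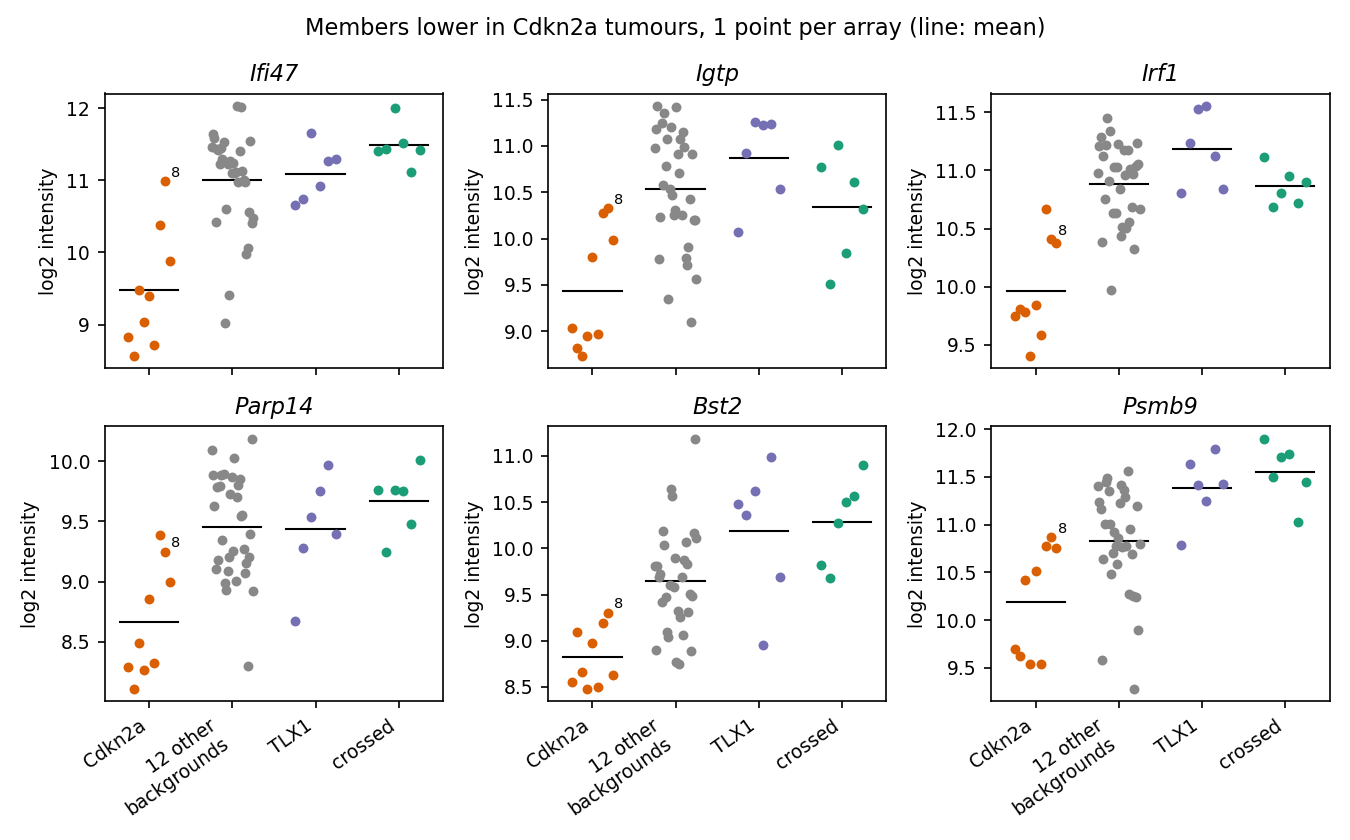
Log2 intensity (vertical axes) of 6 members called lower in Cdkn2a tumours is plotted by array for Cdkn2a, the 12 other backgrounds, TLX1 and TLX1-RUNX ("crossed"); lines are means and the Cdkn2a array marked 8 is replicate 8. Most Cdkn2a points lie under the mean of the 12 other backgrounds, and in all 6 panels the point clouds overlap.

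The Cdkn2a array with a title that names pim1 and ccnd3, replicate 8, had the highest value of the 9 in many antiviral members. Isg20, an exonuclease, was 10.54 there and at most 8.75 in the other Cdkn2a arrays, and Ifih1 was 9.26 against at most 8.03. Without replicate 8, 15 members were lower (15.9% of all genes) and 1 was higher (25.5%). The members added to the lower ones were Isg20 (-0.64), Psmb8 (-0.38) and Tap1 (-0.33), and Eif2ak2 was no longer called. Without p53 replicate 2, which is among the references, 4 were higher. Usp18 lost its call when any of Cdkn2a replicates 2, 6 or 7 or E2A replicate 2 was left out, with -0.70 (adjusted p = 0.0736) without Cdkn2a replicate 2.

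Class I genes and the signalling genes of the pathway did not all follow the members in Cdkn2a tumours. Of 8 other class I presentation genes, 2 were higher, the heavy chain genes H2-D1 (0.69) and H2-K1 (0.69), and 4 were lower, Psmb10 (-0.63), Tapbp (-0.53), Psme1 (-0.53) and B2m (-0.31). Of 24 tested genes of receptors, kinases, interferon regulatory factors and inhibitors, 3 were higher, Socs1 (0.52), Dhx58 (0.47) and Irf5 (0.46), and 5 were lower, among them Socs3 (-0.59), Zbp1 (-0.54) and Irf2 (-0.39).

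Of the markers of other cells, 5 of 12 macrophage and dendritic cell markers were higher in Cdkn2a tumours, and 2 of 7 T cell markers were lower. The macrophage marker score ran from -0.162 to 0.558 in Cdkn2a arrays and from -1.41 to 1.045 in the others. Their part in the result was not tested. In RNA of whole tumours, fewer cells of a type and less RNA per cell cannot be told apart.

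In Ikaros Plastic tumours 7 of 30 members were higher, against 18.7% of all genes, and 2 were lower, against 10.4%. The median member difference was 0.25, and that of all genes 0.03. Iigp1, an immunity-related GTPase that loads onto parasite vacuoles, was 11.40, 9.21 and 8.94 on the 3 arrays, where the 38 arrays of the 12 other backgrounds had a median of 7.99 and a highest value of 10.17. Only replicate 1 lay above all of them. The difference was 1.76 ± 0.37 (SE; adjusted p = 0.000464), and without replicate 1 it was 0.99 and not called (adjusted p = 0.0629).

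Oasl2, an oligoadenylate synthetase-like protein, was 8.37, 9.89 and 9.12, against a median of 7.84 and a highest of 10.48 elsewhere, a difference of 1.14 ± 0.27 (SE; adjusted p = 0.00142). Eif2ak2 was 9.70, 11.08 and 9.52, against a median of 9.38 and a highest of 10.12, a difference of 0.80 ± 0.15 (SE; adjusted p = 8.07e-05). In both genes replicate 2 held the high value. The other members that were higher were Ifih1 (0.87), Irgm1 (0.71), Irf9 (0.65), an interferon regulatory factor that binds the ISRE, and Oasl1 (0.40), and the members that were lower were Ifit2 (-0.69), which binds viral RNA, and Trim25 (-0.68). Signal was low for some of these members. Oasl2, Iigp1 and Ifih1 were above the array median on only 6, 10 and 11 of 53 arrays. Ikaros replicates 2 and 3 were among those of Oasl2, so passing the filter is not independent of its call.

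The 3 Ikaros arrays were high in different members. Replicate 1 was highest in the GTPases Gbp2 (10.38), Gbp3 (10.12), Igtp (11.43) and Iigp1 (11.40), whereas replicate 2 was highest in Isg20 (11.48), Oasl2 and Eif2ak2. Without replicate 2, 1 member, Iigp1, was called (higher by 2.08; adjusted p = 0.00217), where 7.04% of all genes were called higher and 1.76% lower. Of 24 tested pathway genes 5 were higher, with Irf4 at 1.64 the largest, and 1, Zbp1, was lower (-0.50). In the same tumours 4 of 12 macrophage markers and 3 of 8 stroma and endothelium markers were higher, with stroma scores of 0.238 to 1.214 and macrophage scores of 0.202 to 0.752 on the 3 arrays; the part of these cells in the result was not tested.

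In p53 knock out tumours Rsad2, Rtp4, Oas1a, Ifit3 and Trim25 were higher with and without the array that stood apart. The members' share of higher calls was near that of all genes, and their share of lower calls was smaller. With all 3 arrays, 8 of 30 members (26.7%) were higher and 3 (10%) lower, against 23.1% of all genes in each direction. Without replicate 2, 5 were higher and 1 was lower, against 14.8% and 13.5% of all genes. The median member difference was 0.11 in both cases, and that of all genes was -0.03 with the 3 arrays. Of 12 antiviral effectors 5 were higher and 3 lower, with a median of 0.05 over the 13 measured. Of the cell markers, 6 of 8 stroma and endothelium and 4 of 12 macrophage markers were higher and 5 of 7 T cell markers lower, with macrophage scores of 0.069, 0.987 and 0.178 on replicates 1, 2 and 3. On replicate 2, 4 macrophage markers lay above all other arrays; the part of these cells in the values with that array was not tested.

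Rsad2 (viperin), an enzyme that makes a chain-terminating nucleotide, was 9.31, 11.89 and 10.74 on p53 replicates 1, 2 and 3, and the other 38 arrays had a median of 9.02 and a highest value of 9.91. Replicates 2 and 3 lay above all of them and replicate 1 among them. The difference was 1.67 ± 0.23 (SE; adjusted p = 1.66e-07), and without replicate 2 it was 1.05 ± 0.22 (SE; adjusted p = 0.000338).

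Rtp4, a receptor-transporting protein induced by interferon, was 10.97, 11.41 and 10.48, against a median of 9.64 and a highest of 10.99, a difference of 1.37 ± 0.28 (SE; adjusted p = 0.000105) that was 1.14 without replicate 2. Oas1a, an oligoadenylate synthetase that activates the RNA-cutting enzyme RNase L, was 10.58, 10.88 and 9.76, against a median of 9.45 and a highest of 10.88, a difference of 1.06 that was 0.82 without it. Ifit3, which stabilises other Ifit proteins, was 9.63, 10.29 and 9.26, against a median of 8.87 and a highest of 9.68, a difference of 0.91 that was 0.63 without it. The 4 genes and Trim25 (0.72, and 0.71 without it) passed the test both ways.

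Oasl2 (1.31), Bst2 (1.0) and Ifih1 (0.76) passed with the 3 arrays and did not pass without replicate 2, nor did Ifih1 without replicate 3. Oasl2 and Ifih1 were above the array median on only 6 and 11 of the 53 arrays. The members that were lower were Ifit2 (-0.64), Eif2ak2 (-0.44) and Adar (-0.41), the enzyme that edits double-stranded RNA, and of these Adar (-0.47) was lower without replicate 2. None of these 3 passed without replicate 1, where Ifit2 was -0.16. Within the largest array set, which holds p53 replicate 3 alone, Ifit2 was 0.25, and with the array set as a block it was also 0.25. Both fits rest on that array, whose spread is assumed to be that of the other groups, so their calls are not counted here. Of 24 pathway genes 4 were higher, with Socs3 (1.33) and Sting1 (0.79) the largest, and 8 were lower, with Irf4 (-1.27), Dhx58 (-0.67) and Socs1 (-0.67) the largest. The ratio of 3' to 5' actin signal, a measure of RNA quality, was 0.96 ± 0.64 (SD, n = 3, log2) in p53 tumours and 0.31 ± 0.31 (SD, n = 41) over the 13 backgrounds. Its part was tested only by adding it to the model, where 7 members were called, all higher. The share of all genes called in that fit is not given here.

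**Figure D4:**
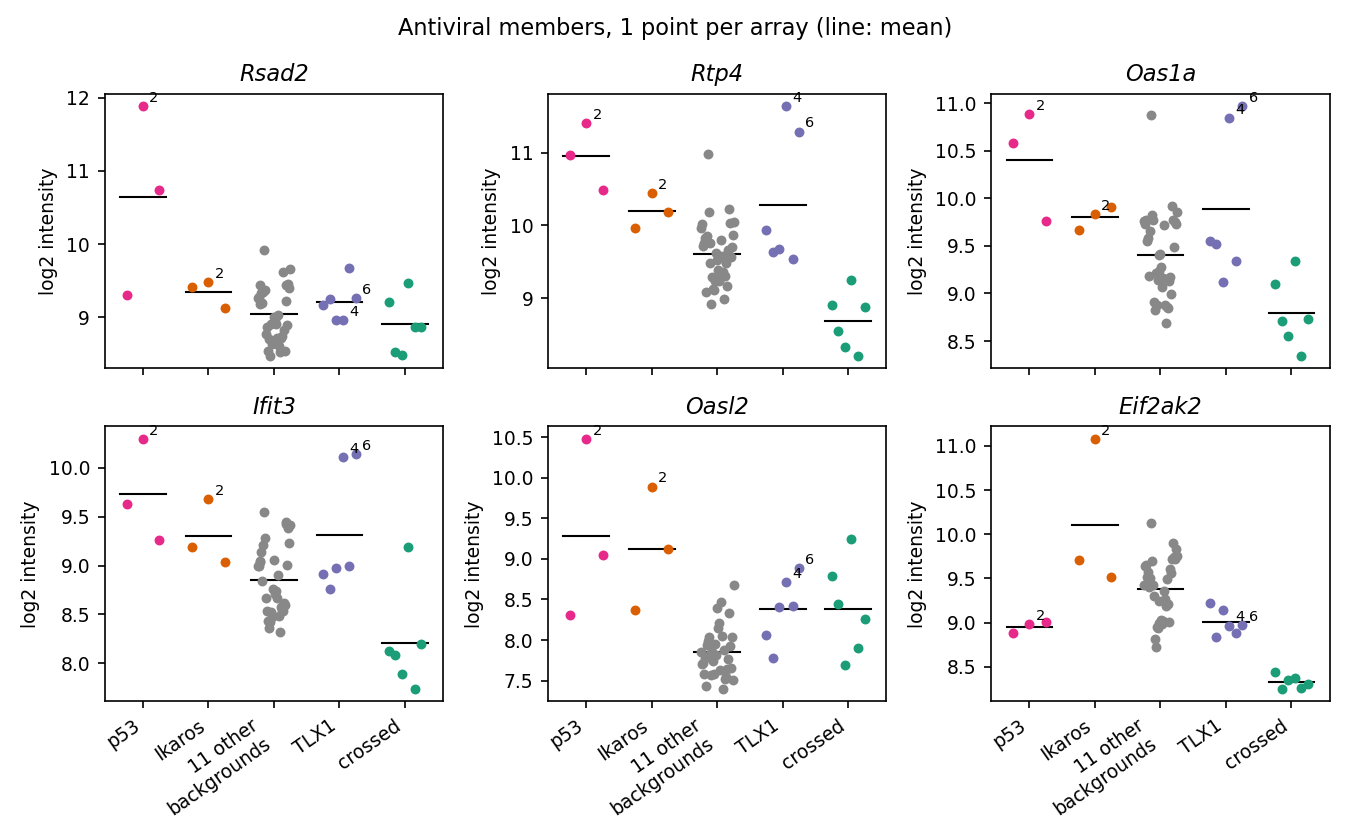
Log2 intensity (vertical axes) of 6 members is plotted by array for p53, Ikaros, the 11 other backgrounds, TLX1 and TLX1-RUNX ("crossed"); lines are means and numbers mark p53 and Ikaros replicates 2 and TLX1 replicates 4 and 6. Rtp4, Oas1a and Ifit3 are high on the same arrays of p53 and TLX1, and Eif2ak2 on the TLX1-RUNX arrays lies at 8.25 to 8.43, under every other array.

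The remaining backgrounds had few called members. In beta-catenin tumours 2 were higher (21.6% of all genes) and 3 lower (11.9%). Oasl1 was 9.90, 9.76 and 9.67, where the other 38 arrays had a median of 8.85 and a highest of 9.83, so that only replicate 1 was above all others, and the difference was 1.05 ± 0.11 (SE; adjusted p = 1.41e-09). Oasl1 followed the array median (r = 0.807), and the beta-catenin arrays had the highest mean log2 median of any background, 9.08. With centred arrays the Oasl1 difference was 0.88 and still called. Eif2ak2 (0.44) was the other higher member, and it did not pass when any of the 3 arrays was left out, with centred arrays or after quantile normalization. Trim25 (-0.99; adjusted p = 1.93e-06), Psmb9 (-0.96) and Psmb8 (-0.85), the latter both immunoproteasome subunits, were lower, and without replicate 2 neither subunit passed (adjusted p = 0.134 and 0.0597). Without Cdkn2a replicate 8 there were 5 higher members, without beta-catenin replicate 1 there was 1, and without Nup98HoxD13 replicate 3 there were 5 lower ones. With centred arrays the counts were 1 higher and 7 lower, and after quantile normalization 1 and 5. No share of all genes is given here for these refits or those with an array left out. Of 24 pathway genes 6 were higher, with Socs1 (1.58), a feedback inhibitor of Janus kinases, the largest, and 1 was lower, Socs3 (-0.71). Of B cell markers 4 of 5 tested were higher, as was 1 of 7 T cell markers, and of 12 macrophage markers 2 were higher and 1 lower, with scores of -0.156 to 1.045; their part was not tested.

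In ThPOK tumours 2 members were higher (15.5% of all genes) and 1 lower (9.03%). Usp18 was 8.62, 11.69 and 11.55, a difference of 1.88 ± 0.48 (SE; adjusted p = 0.00383), with replicates 2 and 3 above all 38 others and replicate 1 among them. Without replicate 2 it was 1.34 and not called (adjusted p = 0.112), and it was also not called without replicate 3. Eif2ak2 was higher (0.46), a call lost when any of the 3 arrays was left out, and Trim25 was lower (-0.60). Quantile normalization gave 2 higher and 2 lower, with no share of all genes given for that fit. Of 12 macrophage markers 6 were higher, with scores of 0.204 to 0.586; their part was not tested.

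Oasl1 was the member called lower in LMO1 (-0.68), Olig-LMO1 (-0.55), Pokemon (-0.47) and Nup98HoxD13 (-0.46) tumours, and Eif2ak2 was also lower in LMO1 tumours (-0.58). The Eif2ak2 call was lost without LMO1 replicate 2, the Oasl1 call in Nup98HoxD13 without its replicate 1 or 2, and that in Pokemon when any of 7 arrays was left out. The Pokemon call was also lost with quantile normalization (adjusted p = 0.0652), centred arrays (0.0642), the replicate block (0.0689), all 14 other backgrounds as reference (0.116) and without the Cdkn2a arrays (0.107), with differences of -0.40 to -0.46. The Nup98HoxD13 call was lost with the 14 backgrounds as reference (adjusted p = 0.059). Of all genes, 17.3%, 13.4%, 3.01% and 3.32% were called there in either direction, and 7, 4, 1 and 4 members had an unadjusted p under 0.05. With centred arrays 1 member was higher in LMO1 tumours and 1 in Olig-LMO1 tumours, with no share of all genes given. Over the 41 arrays Oasl1 followed the array median (r = 0.807). Mean log2 medians in LMO1, Olig-LMO1, Pokemon and Nup98HoxD13 arrays were 8.80, 8.82, 8.87 and 8.86, where that over all arrays was 8.91. Their Oasl1 differences with centred arrays were -0.55, -0.44, -0.43 and -0.40, and the Pokemon call was lost. E2A, rag E2A, Tal1 and Tal1-LMO2 arrays, with no Oasl1 call, had 8.87, 8.81, 8.90 and 8.83. In E2A, rag E2A, Tal1 and Tal1-LMO2 tumours limma called 0 members, against 1.98%, 2.36%, 3.25% and 4.2% of all genes, and 2, 3, 2 and 5 members had an unadjusted p under 0.05.

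TLX1 and TLX1-RUNX tumours were each compared with the mean of the same 13 backgrounds, so the comparisons share their controls. In TLX1 tumours 7 members were higher (26.8% of all genes) and 3 lower (20.3%), with a median member difference of 0.14 and of 0.03 over all genes. Those higher were Bst2 (0.62), Rtp4 (0.59), Psmb9 (0.57), Oas1a (0.46), Ifit3 (0.43), Mx1 (0.40) and Tap1 (0.38), the transporter that carries peptides to class I molecules. Those lower were Adar (-0.51), Oasl1 (-0.43) and Eif2ak2 (-0.36). Mx1 was above the array median on only 3 of the 53 arrays, the fewest the filter allowed. TLX1 replicate 1 was among them (9.4, where that array's log2 median was 8.95), so passing the filter is not independent of this call.

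In TLX1 tumours Rtp4 was 9.93, 9.63, 9.68, 11.65, 9.54 and 11.29 on replicates 1 to 6, against a median of 9.70 and a highest of 11.41 in the 41 arrays of the 13 backgrounds. Oas1a was 9.55, 9.52, 9.12, 10.84, 9.34 and 10.97, and Ifit3 was 8.91, 8.76, 8.97, 10.11, 8.99 and 10.14. In all 3 genes replicates 4 and 6 were the high ones, and the other 4 lay among the 13 backgrounds. Without replicate 4 Rtp4 was 0.32 and not called (adjusted p = 0.186), and without replicate 6 neither Ifit3 (0.26) nor Oas1a (0.25) was called; 4 members in all were higher without replicate 4. Bst2, Psmb9 and Tap1 lost their calls without replicate 5, and Mx1 without replicate 1.

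No TLX1 call was made within the array sets. With the array set as a block, limma called 0 members in either direction, 3 had an unadjusted p under 0.05 and the median was -0.08; of all genes 2.11% were called higher and 1.87% lower. Against p53 replicates 1 and 2 of the same set limma called 0 members and 0 genes of any kind, 3 members had an unadjusted p under 0.05 and the median was -0.19. Replicate 2 is the array that stood apart from the T-cell label, and Rtp4, Oas1a and Ifit3 were high on both p53 arrays. The block also ties the TLX1 set to the others only through p53 arrays, so both fits rest on these controls. With the actin ratio, 1.39 ± 0.62 (SD, n = 6, log2) in these arrays, added to the model, 1 member was higher and 1 lower. With centred or quantile-normalized arrays 5 were higher and 4 lower. The shares of all genes in the actin and rescaled fits are not given here. Of 24 pathway genes 9 were higher, with the interferon gamma receptor gene Ifngr1 (1.04) and Socs3 (0.84) the largest, and 6 were lower, with Irf4 (-0.95) the largest. Of 12 macrophage markers 4 were higher, with scores of -0.129 to 0.705, and of 8 stroma and endothelium markers 3; their part was not tested.

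In TLX1-RUNX tumours Eif2ak2 and Rtp4 showed the largest falls, and Psmb9, Bst2 and Usp18 were among the members that were higher. Of 30 members 9 were higher (22.1% of all genes) and 6 lower (41.2%), with a median of 0.15 where that of all genes was -0.12. By role, 5 of 12 antiviral effectors, a share near that of all genes, and 1 of 6 regulators were lower, and 3 of 3 antigen processing genes, 2 of 6 GTPases, 2 of 6 regulators and 2 of 12 antiviral effectors were higher. When each array was centred on its median 19 were higher and 4 lower, and after quantile normalization 12 and 4. The medians of these arrays were the lowest on average, so centring raises all their values against the other arrays. Over the 41 arrays all 6 lower members rose with the array median, with r from 0.507 (Mx2) to 0.807 (Ifit3, Oasl1). Of the 9 higher ones, Psmb9 (-0.603), Psmb8 (-0.554), Mx1 (-0.353), Bst2 (-0.174), Gbp3 (-0.171) and Usp18 (-0.127) fell with it. Iigp1 (0.464), Ifi35 (0.37) and Tap1 (0.102) rose with it. Beyond centring and quantile normalization, the part of the array median in these calls was not tested. The 22.1% and 41.2% belong to the deposited scale, and the shares of all genes in the rescaled fits are not given here.

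Eif2ak2 (chr17:78850504-78882572) ran from 8.25 over 8.33 to 8.43 in the 6 TLX1-RUNX arrays and from 8.72 over 9.42 to 11.08 in the 41 arrays. The groups did not overlap, and the difference was -1.03 ± 0.11 (SE; adjusted p = 3.53e-11). Rtp4 ran from 8.20 over 8.71 to 9.25 (-1.01; adjusted p = 4.06e-05), and its 6 values overlapped only the low end of the others, which began at 8.92. Ifit3 (-0.68), Oas1a (-0.63), Oasl1 (-0.55) and Mx2 (-0.39), a dynamin-like antiviral GTPase, were also lower.

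Among members higher in TLX1-RUNX tumours, Psmb9 ran from 11.03 over 11.61 to 11.90, against 9.28, 10.77 and 11.56 (0.74 ± 0.20 SE; adjusted p = 0.00109). Bst2 ran from 9.68 over 10.38 to 10.90, against 8.48, 9.47 and 11.18 (0.73; adjusted p = 0.0017). The others were Usp18 (0.80), Gbp3 (0.65), Iigp1 (0.65), Ifi35 (0.52), Mx1 (0.47), Tap1 (0.41) and Psmb8 (0.37). Mx1 was above the array median on only 3 of the 53 arrays, the fewest the filter allowed. Usp18 lost its call when any of 14 arrays was left out, and Tap1 turned to -0.14 with the mean of its probe sets. Without TLX1-RUNX replicate 4, 5 members were higher, and Gbp3, Iigp1, Psmb8 and Mx2 were among the calls lost. Of 24 pathway genes 8 were higher, with Ifngr1 (2.0) the largest, and 8 lower, with Socs3 (-1.55) and Irf4 (-1.22) the largest. Of the cell markers, 6 of 12 macrophage markers were higher and 2 lower, with scores of -0.114 to 0.367, and 3 of 7 T cell markers were lower; their part was not tested.

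Set directly against TLX1 tumours, TLX1-RUNX tumours had 3 members higher (18.8% of all genes) and 4 lower (37.3%). Rtp4 ran from 9.54 to 11.65 in TLX1 arrays and from 8.20 to 9.25 in TLX1-RUNX arrays, without overlap (-1.60 ± 0.27 SE; adjusted p = 1.89e-06). Eif2ak2 ran from 8.84 to 9.22 in TLX1 arrays, above all TLX1-RUNX values (-0.67; adjusted p = 7.01e-05). Ifit3 (-1.11) and Oas1a (-1.10) were lower with overlapping arrays. Over the 41 arrays these 4 lower members rose with the array median, with r from 0.706 (Rtp4) to 0.807 (Ifit3). The 3 higher ones rose with it less: Irgm1 (0.045), Adar (0.269) and Irf9 (0.499). Beyond centring and quantile normalization, the part of the array median in these calls was not tested either.

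Irgm1, an immunity-related GTPase that guards self membranes, ran from 9.0 to 9.29 in TLX1 arrays and from 9.50 to 10.12 in TLX1-RUNX arrays, without overlap (0.58 ± 0.21 SE; adjusted p = 0.0143). Adar (0.50) and Irf9 (0.32) were also higher, and Irf9 lost its call when any of 29 arrays was left out. Without TLX1 replicate 5, 6 members were higher. With centred arrays 16 were higher and 4 lower, and after quantile normalization 10 and 3, and the shares of all genes in these fits are not given here. The array sets of the TLX1 and TLX1-RUNX arrays differ, so a block for them could not be fitted here.

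Over the 41 arrays of the 13 backgrounds some members varied together and others did not. Of 528 pairs of members, 96 had a Pearson correlation above 0.5 and 15 below -0.5, and after the array medians were subtracted the counts were 79 and 15. Oas1a and Rtp4 had r = 0.916, Ifit3 and Oas1a 0.891, and Ifit3 and Rtp4 0.878. Irf1 and Ifi47 had r = 0.843, Igtp and Ifi47 0.799, Gbp2 and Gbp3 0.795, Irf1 and Parp14 0.793, and Irf1 and Igtp 0.763. The immunoproteasome pair Psmb8 and Psmb9 had r = 0.811.

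The scores of the GTPases and of the antiviral effectors had r = 0.199 with each other. Ifit2 went against Ifit3, its neighbour on chromosome 19, with r = -0.528, and against Rtp4 with r = -0.585. Some members moved with the array median itself, among them Ifit3, Oas1a (r = 0.772) and Rtp4 (0.706) upward and Trim25 (-0.681) and Psmb9 (-0.603) downward, while the whole score had r = 0.204 with it. These correlations describe arrays that share backgrounds and scaling and carry no test.

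**Figure D5:**
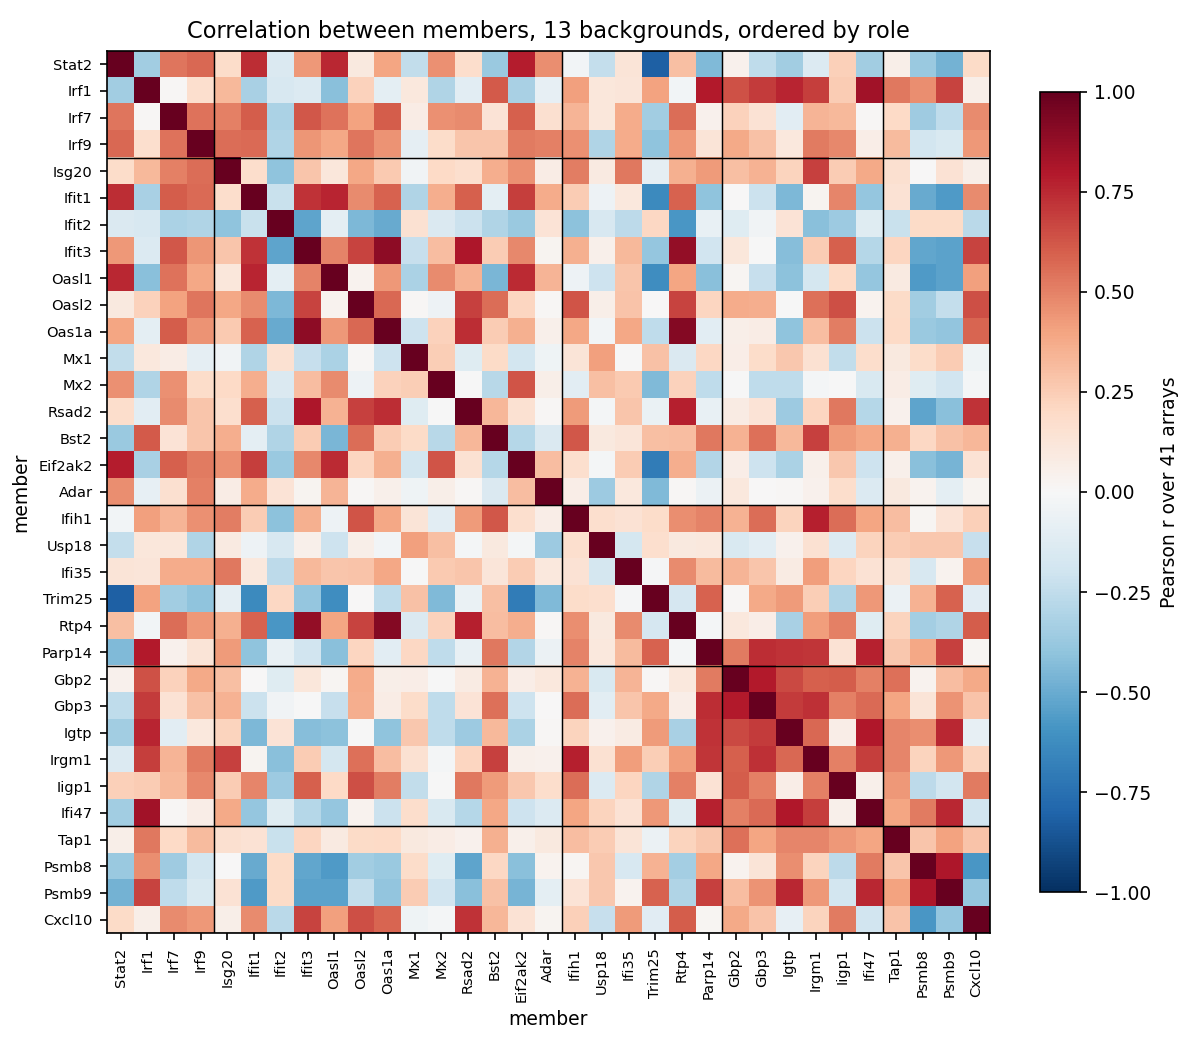
Pearson correlation over the 41 arrays of the 13 backgrounds is shown by colour for each pair of the 33 measured members, ordered by role (black lines). The red square at the GTPases, with the Irf1 row, and the red cells among Ifit3, Oas1a, Rsad2 and Rtp4 are the groups with high values, and Ifit2 and Trim25 show blue rows.

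Of genes outside the list, those with the score most like the members' over the 41 arrays were Tapbp (r = 0.795), a class I chaperone, Lgals3bp (0.793), Cln3 (0.729), Fam222b (0.714), Pgap2 (0.71), Trim30a (0.707), Itm2c (0.704), Mfsd10 (0.693), Tecpr1 (0.691) and Trafd1 (0.684). Over the 38 arrays of the largest array set 6 of these 10 were again among the 10 highest. Tapbp also belongs to the class I list, whose score is given next. The member score had r = 0.533 with the class I score, 0.435 with the pathway score, 0.411 with the NK and cytotoxic cell score, 0.38 with the B cell score, 0.274 with the stroma and endothelium score, 0.136 with the macrophage score and 0.012 with the T cell score, as a description over the same arrays. By role, the macrophage score had r = 0.422 with the antiviral effector score and -0.005 with the GTPase score.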

How the data were processed

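The deposited table held linear intensities of 22690 probe sets on 53 arrays, normalized by the authors with a method not given in the sources used here; total RNA was labelled as biotinylated cRNA, per the labels' protocols. The log2 of these deposited intensities was taken, and probe sets were named through GEO's platform annotation, where 20380 had 1 gene symbol, 691 several and 1606 none. A model with a mean per background was fitted to all 53 arrays with limma 3.58.1 in R 4.3.3 (lmFit, contrasts.fit, eBayes), with Benjamini-Hochberg adjustment over 9156 genes and an adjusted p threshold of 0.05; all tests were two-sided. Scores and correlations were made in Python 3.11.15 (pandas 2.3.3, NumPy 2.4.6), and Matplotlib 3.10.9 drew the plots. Simulated data with known changes were used to check the fit. The number of arrays limits the precision. The members, lists and comparisons were chosen with earlier results of these data known. In each comparison up to 6 called members of largest difference per direction were named, and up to 4 called genes of each other list. Outside the member list, 10 genes were named by correlation with the score. Alternatives were other filters, scalings, probe set rules, references, blocks and arrays left out; the actin covariate, the fit without Cdkn2a arrays and the centred correlations were chosen after seeing the data.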

Additional observations from a re-analysis of the deposited data

Results flagged for a closer look

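In 102 groups of 4 to 10 arrays, 1 array stood far from the others in 14, measured as its gap to the nearest array over the range of the group. The groups share arrays and hold members that vary together, so this count cannot be set against a chance rate of about 1 in 20. Of the 14, 9 were Cdkn2a replicate 8, the tumour titled for pim1 and ccnd3. It was the highest of 9 arrays in Irf7 (9.99, next 9.44), Irf9 (9.51, next 8.74), Isg20 (10.54, next 8.75), Ifih1 (9.26, next 8.03) and Oasl1 (9.83, next 9.47). It was also the highest in Oas1a (10.87, next 9.82), Rsad2 (9.91, next 9.44), Irgm1 (10.24, next 9.19) and Eif2ak2 (10.12, next 9.7). On the same array the B cell marker score was 1.058 and the NK and cytotoxic cell score 0.643, the highest of the 9 in both; their part was not tested.

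TLX1 replicate 5 was high in Ifih1 (9.19, next 8.2) and Iigp1 (10.84, next 8.77), and TLX1 replicate 1 in Mx1 (9.4, next 8.49). TLX1-RUNX replicate 4 was high in Ifit3 (9.19, next 8.2) and Iigp1 (9.55, next 8.86).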

How the results depend on the processing

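The number of members that differed across the 13 backgrounds was 24, 23 with the replicate number as a replicate block, 21 to 26 with any 1 array left out, 18 without the Cdkn2a arrays and 15 with the stricter filter, which tests fewer genes (6844). Replicate numbers did not pair the arrays: the mean correlation of deviations was -0.005 for the same number and 0.002 for others, and 7 of 44 arrays correlated best with their own number. The replicate block moved the median of rag E2A tumours to -0.21 and the TLX1 count from 7 higher and 3 lower to 2 and 2. Quantile normalization and centring moved the median member difference to 0.127 and 0.094 in Ikaros, 0.0622 and 0.0719 in LMO1, 0.0312 and 0.0487 in Olig-LMO1, -0.0631 and -0.0614 in rag E2A, 0.0045 and 0.0183 in ThPOK (0.001 with the mean of probe sets), 0.36 and 0.45 in TLX1-RUNX, and 0.38 and 0.48 in TLX1-RUNX against TLX1. With 1 array of the background left out the medians were 0.0281 to 0.143 in E2A, -0.167 to -0.136 in rag E2A, -0.048 to 0.135 in Tal1 (-0.023 without Cdkn2a arrays) and 0.0284 to 0.137 in ThPOK. With the array set as a block the TLX1 median was -0.0752, Ifit3 -0.24, Oas1a -0.46 and Rtp4 -0.0754. Against p53 arrays of the same set the median was -0.19, Ifit3 -0.65, Oas1a -0.84, Bst2 -0.49, Rtp4 -0.91, Eif2ak2 0.0737 and Adar 0.0359. Both of these TLX1 fits rest on p53 arrays that include replicate 2, the array that stood apart. Ifit2 in p53 was 0.25 with the block and 0.25 in the largest array set alone, and Tap1 in TLX1-RUNX was -0.14 with the mean of probe sets. The stricter filter left 2 members higher in Ikaros, and 5 higher and 3 lower in TLX1-RUNX; the actin ratio as a covariate left 5 and 5. In the largest array set 11 members were higher in Ikaros and 5 in Cdkn2a. No share of all genes is given for the refits of this section, so their member counts have no background. Apart from the filter, whose tested genes are fewer, the cause was not tested. Of the 33 measured members 14 had a mean below the mean array median of 8.91, where signal limits what can be seen.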
